A study of Mus musculus with 6 samples.

Results

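Regulatory T cells (Treg) were taken from single-cell transcriptomes as the non-cycling cells that carried a Foxp3 transcript together with a CD3 transcript. The members were chosen by measured values. A cell entered the class with at least 1 unique molecular identifier (UMI, a tag that counts each captured RNA molecule once) for Cd3e or Cd3d, at least 1 for Foxp3, none for Cd8b1 or Csf1r, and fewer than 2 summed over the cycling genes Mki67 and Top2a. This gave 70 Treg among 6364 kept cells, of which 47 were among 3978 cells of the Empty vector library and 23 among 2386 cells of the Bmal1 WT library. The labels name YUMM2.1, a mouse melanoma line, as the source of both groups, with an empty vector in the Empty vector (EV) group and wild-type Bmal1, the circadian transcription factor encoded by Arntl, in the Bmal1 WT group. The study made such lines from YUMM2.1 and also from a Bmal1 knockout clone of it, and the labels mention no knockout. They name no tissue, and the study's methods describe tumours of such lines under the skin of mice but not how these cells were collected. Each group held 3 replicates, marked by hashtag antibodies, and all replicates of a group went through 1 droplet channel, so an effect of the channel cannot be told apart from an effect of the group. Nothing in the sources says that the replicates were separate animals, and p-values measure the spread between these replicates only.

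Regulatory T cells are CD4 T cells that restrain other immune cells. The transcription factor Foxp3 fixes their identity, a high level of the IL-2 receptor alpha chain (Il2ra, CD25) lets them capture IL-2, and the receptor Ctla4 removes co-stimulatory ligands from antigen-presenting cells. In tissues and tumours they often take an effector state, with receptors of the TNF receptor family, adhesion molecules and mediators such as IL-10 and amphiregulin, while resting Treg keep genes of recirculating lymphocytes. The comparison class was conventional CD4 T cells, which met the same rule but for at least 1 Cd4 UMI and no Foxp3 UMI. There were 240 of these, 186 in EV and 54 in Bmal1 WT.

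The replicates rest on the 15-base barcodes of the hashtag antibodies, which are shown because all comparisons are made between them. The barcodes, in lower case and from 5′ to 3′, were these.
Empty vector h1: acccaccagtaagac
Empty vector h7: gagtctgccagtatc
Empty vector h8: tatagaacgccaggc
Bmal1 WT h3: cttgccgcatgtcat
Bmal1 WT h5: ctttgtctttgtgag
Bmal1 WT h9: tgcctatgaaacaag
Any pair of these 6 barcodes differed at 8 to 14 positions. The Treg of EV fell to h1 (7 cells), h7 (10 cells) and h8 (21 cells), and those of Bmal1 WT to h3 (14 cells), h5 (2 cells) and h9 (5 cells). A further 2 Treg of EV had no hashtag, and 7 of EV and 2 of Bmal1 WT had several, so that they entered totals per library but no replicate. The summed depth of a replicate's Treg ranged from 11900 UMIs (h5) to 127306 UMIs (h8), and the values of h5 rest on 2 cells throughout. The libraries shared 5 cell barcodes, and 0 of these were a Treg in both.

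Foxp3 was found mainly in cells with CD3. A Foxp3 UMI was seen in 138 of 1608 cells with a CD3 UMI, or 8.58% (Clopper-Pearson 95% interval 7.26 to 10.1), at a median depth of 5289.5 UMIs. Among cells that should lack the gene, it was seen in 0 of 197 macrophages, which allows a share of up to 1.52% by a floor of 3 counts (Clopper-Pearson upper limit 1.86%), in 1 of 464 fibroblasts or 0.216% (0.00546 to 1.19), and in 3 of 422 melanoma cells or 0.711% (0.147 to 2.06). Their median depths of 11996, 26694.5 and 20698 UMIs were above that of the CD3 cells. These intervals cover counting error only. Of the 98 EV cells with a Foxp3 UMI, 47 were Treg, 23 also carried Cd8b1, 17 were cycling, 8 had no CD3 UMI and 3 carried Csf1r. Of the 51 in Bmal1 WT, 23 were Treg, 16 were cycling, 7 carried Cd8b1, 3 had no CD3 UMI and 2 carried Csf1r. The Foxp3 UMIs that chose the members ranged from 1 to 14 per cell, with 16 cells at exactly 1 UMI, just inside the rule, 17 cells at 2 and 37 cells at 3 or more. Cd4, which the rule did not require of Treg, was seen in 29 of the 47 Treg of EV and 16 of the 23 of Bmal1 WT.

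Cells that entered on a single Foxp3 UMI held most other Treg genes above the level in conventional cells. Summed over cells and scaled to counts per 1000000 UMIs (CPM), Ikzf2 stood at 3174 CPM in the 16 cells with 1 Foxp3 UMI, 2351 CPM in the 17 cells with 2, and 2917 CPM in the 37 cells with 3 or more. In conventional cells it stood at 292 CPM. Il2ra ran through 1708, 1224 and 1381 CPM in the same order, against 334 CPM in conventional cells, and Tnfrsf9 through 1294, 1213 and 1388 CPM, against 239.8 CPM. Ctla4 ran through 5778, 2662 and 3455 CPM, against 1038 CPM, and Lrrc32 through 69.0, 118 and 182 CPM, against 13.5 CPM, so that Ctla4 was at its highest and Lrrc32 at its lowest in the cells with 1 Foxp3 UMI. Penk had no UMI in the cells with 1 Foxp3 UMI. Tcf7, a factor of naive and memory T cells, stood at 0, 42.9 and 0 CPM, against 393 CPM. These are descriptions over pooled cells, whose median depths were 3090, 4630 and 6050 UMIs, with 4113.5 UMIs in conventional cells.

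The label was checked on the 6 markers given for these cells, of which Foxp3 itself had selected them. Il2ra (GRCm38 chr2:11642807-11693193, plus strand) reached 609.9, 1772 and 1642 CPM in the Treg of EV and 1353, 336 and 1279 CPM in those of Bmal1 WT. In conventional cells it ranged from 0 to 576 CPM, below the Treg of the same hashtag in all 6 cases. The gene was 5.98-fold higher in Treg (log2 fold change 2.58, SE 0.33, adjusted p = 3.06e-05 in edgeR's quasi-likelihood test). Ctla4 (chr1:60887000-60915832, plus strand) reached 3601, 3436 and 4564 CPM in the Treg of EV and 3534, 2521 and 2933 CPM in those of Bmal1 WT, while conventional cells ranged from 297 to 1321 CPM, so that the classes did not overlap. Its log2 fold change was 2.12 (SE 0.21, adjusted p = 1.04e-06).

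Tnfrsf4 (OX40, a co-stimulatory receptor, chr4:156013843-156016612, plus strand) reached 1423, 1103 and 1218 CPM in the Treg of EV and 1295, 252 and 1767 CPM in those of Bmal1 WT, against 107 to 451 CPM in conventional cells. Among the Treg values, that of the 2 cells of h5 lay within the range of conventional cells. Izumo1r (folate receptor 4, chr9:14885814-14903949, minus strand) reached 784, 651 and 487 CPM in the Treg of EV and 493, 336 and 301 CPM in those of Bmal1 WT, against 84.1 to 173 CPM, with no overlap. The log2 fold changes of Tnfrsf4 and Izumo1r were 2.44 (SE 0.26, adjusted p = 3.28e-06) and 2.10 (SE 0.28, adjusted p = 5.76e-05). At an equal depth of 2000 UMIs per cell, which 68 Treg and 212 conventional cells reached, Il2ra was seen in 75.0% of Treg and 17.5% of conventional cells. Ctla4 was then seen in 94.1% and 60.8%, Tnfrsf4 in 86.8% and 28.3%, and Izumo1r in 63.2% and 15.6%. Without that thinning, Il2ra was seen in 84.3% of Treg and 21.7% of conventional cells.

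Penk, which encodes proenkephalin, did not mark the class. It was seen in 6 of 70 Treg and 19 of 240 conventional cells. Its level was 494, 488 and 259 CPM in the Treg of EV and 0, 0 and 188 CPM in those of Bmal1 WT. In conventional cells it was 17.9, 14.8 and 812 CPM in EV and 434, 0 and 0 CPM in Bmal1 WT. The classes overlapped, and the log2 fold change of 0.44 (SE 0.92, adjusted p = 0.897 in edgeR) was within the spread between hashtags. Its sign turned under several settings. Of its UMIs in Treg, 1 cell held 34.1%, and of its 496 UMIs in conventional cells, 1 cell held 33.1%. In all 6294 kept cells other than Treg, the markers were lower still than in conventional CD4 cells: Il2ra stood at 50.1 CPM in EV and 21.9 CPM in Bmal1 WT, Izumo1r at 14.4 and 8.14 CPM, and Ctla4 at 179.8 and 61.6 CPM. CD8 T cells held Ctla4 at 503 CPM in EV and 462 CPM in Bmal1 WT, and Ikzf2 at 314 and 201 CPM.

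**Figure D1:**
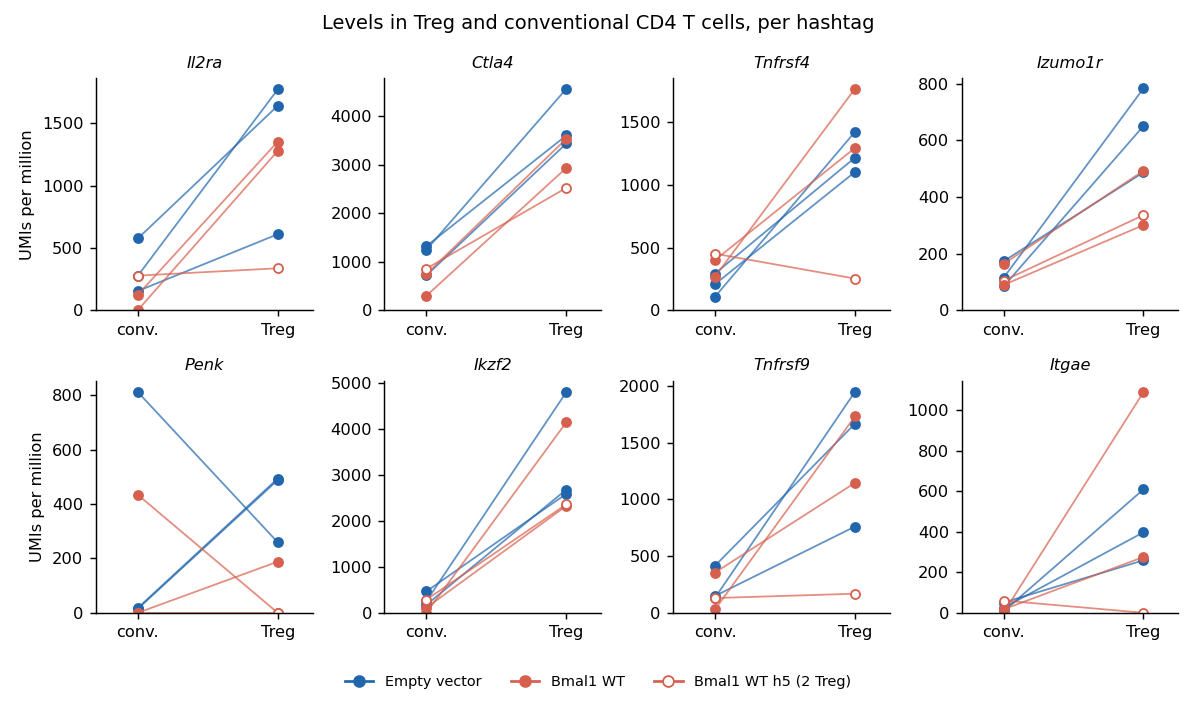
Level in CPM (y axis, linear from 0) of 8 genes in conventional CD4 T cells and in Treg, with a line for each of 6 hashtags (blue EV, red Bmal1 WT, open circle the h5 replicate with 2 Treg). Ctla4, Izumo1r and Ikzf2 go up along every line, while the lines of Penk cross.

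Across all genes, Treg and conventional CD4 T cells were compared on UMIs summed per hashtag and class, with the hashtag as a block. Bmal1 WT h5 was left out of this fit, since a sum of this fit needed at least 5 cells. The comparison of groups within Treg and the interaction had no such limit and include the h5 sum of 2 Treg. Of 4545 genes that reached 50 UMIs in total in the 10 sums, 250 were called at an adjusted p under 0.05 (5.5% of genes tested), 131 higher in Treg (2.88%) and 119 lower (2.62%). These include 2 genes that the rule used, which are not results. Of the 250 called genes, 209 moved the same way in 5 of 5 hashtag pairs, and 115 were higher and 96 lower by more than 2-fold. The median log2 fold change over all genes was 0.02. Of the called genes, 24 of the higher and 49 of the lower passed the filter through 1 class only, which means that at the level of the lower class they would have stayed under 50 UMIs. Such a gene had to differ to be tested, so its p-value, and counts and medians over lists, describe the tested genes and are no support for a direction. Klrg1, Ccr9, Itgb8, Itgae, Lrrc32 and Cd83, among others, passed through Treg only. Tcf7, Tnfsf8, Tbc1d4, Evl, Gm2682, Il4, Il13, Il17a, Cd40lg, Irf7, Hlf and Gzma, among others, passed through conventional cells only. Treg were deeper than conventional cells, with a median of 4467 against 3566 UMIs in EV and 6194 against 5057.5 in Bmal1 WT. Cells thinned to 2000 UMIs gave 88 genes higher (4.81% of 1830 tested) and 78 lower (4.26%). The number of calls fell to 136 without EV h7, 145 without h8 and 148 without Bmal1 WT h3.

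The genes with the smallest adjusted p among those higher in each of the 5 hashtag pairs fitted, beside the markers, were Klrg1, Ikzf2, Ccr9, Itgb8, Itgae, Glrx, Tnfrsf9, Cmtm7, Ccr2 and Pglyrp1. Ikzf2 (Helios, an Ikaros-family factor of Treg, chr1:69531214-69687245, minus strand) stood at 4792, 2676 and 2584 CPM in the Treg of EV and 2322, 2353 and 4136 CPM in those of Bmal1 WT. Conventional cells ranged from 0 to 465 CPM, below every Treg value. Ikzf2 was 15.5-fold higher (log2 fold change 3.95, SE 0.34, adjusted p = 2.53e-07) and seen in 68 of 70 Treg. Klrg1, an inhibitory lectin-like receptor of effector cells, had 73 UMIs in the Treg of the 5 hashtags fitted and 2 in the conventional cells, a ratio per UMI of 103 with a counting interval of 27.6 to 869. It was seen in 29 of 70 Treg and 3 of 240 conventional cells. Glrx (glutaredoxin) was at 842, 687 and 628 CPM in the Treg of EV and 585, 1176 and 263 CPM in those of Bmal1 WT, against 26.0 to 182 CPM in conventional cells (log2 2.25, SE 0.26, adjusted p = 7.87e-06). Cmtm7 had a log2 fold change of 2.36 and Pglyrp1, a secreted peptidoglycan recognition protein, of 2.53.

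The list of Treg identity genes had 18 members beside Foxp3, of which 14 could be tested. Of these, 11 were higher, 1 was lower and 2 did not pass, with a median log2 fold change of 2.11 against 0.02 over all genes. Of the list, 3 of the called members (Itgae and Lrrc32 among them) passed the filter through 1 class only. The median over the 11 members that did not was 1.47. Ikzf4 (Eos, a partner of Foxp3) had a log2 fold change of 2.93 (SE 0.40, adjusted p = 7.98e-05), and Lrrc32 (GARP, which holds latent TGF-beta on the surface) of 4.14 (SE 0.65, adjusted p = 0.000363). Itgae (CD103, the integrin chain that binds E-cadherin) reached 609.9, 398 and 259 CPM in the Treg of EV and 276, 0 and 1091 CPM in those of Bmal1 WT, against 0 to 60.7 CPM in conventional cells. Tnfrsf18 (GITR), Capg and Socs2 were higher by 1.47, 1.41 and 1.08 on the log2 scale, and Socs2 lost the call in 10 of 16 alternative settings. Nrp1, a semaphorin co-receptor often used to mark Treg of thymic origin, was at 75.5 CPM in all Treg and 213 CPM in conventional cells, with a log2 fold change of -1.79 (SE 0.39, adjusted p = 0.00644). When 1 replicate was left out, the call ended for Nrp1 (h7 or h3) and Socs2 (h1, h7, h8 or h3). Cd27 did not pass (log2 1.08, adjusted p = 0.0513).

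Of 15 tested genes of the TNF receptor family and the NF-kB pathway, 8 were higher and 0 lower, with a median of 1.41. Among these calls, Tnfrsf4 and Tnfrsf18 are also in the Treg identity list, and Tnfrsf9, Tnfrsf1b and Traf1 in the effector Treg list. The counts of these lists are therefore not independent. Of the list, 1 of the called members passed the filter through 1 class only, and the median over the 13 members that did not was 1.41. Tnfrsf9 (4-1BB) stood at 1946, 759.5 and 1665 CPM in the Treg of EV and 1145, 168 and 1729.8 CPM in those of Bmal1 WT, against 29.7 to 415 CPM in conventional cells, and only the value of h5 fell within that range. Its log2 fold change was 2.65 (SE 0.32, adjusted p = 1.62e-05). Tnfrsf1b (TNF receptor 2) was higher by 1.93 and Tnfrsf13b (TACI) by 2.41. The feedback inhibitor Nfkbia rose by 1.41, its nuclear relative Nfkbid by 1.58 and the adaptor Traf1 by 1.45. The subunits Nfkb1 (-0.26) and Rel (1.17) did not pass the test, nor did Tnfaip3 (0.12), the inhibitor A20, or Birc3 (0.93).

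Of the 13 suppressive effector genes tested, 6 were higher and 0 lower, with a median of 0.99. Of the list, 2 of the called members (Itgb8 and Lrrc32) passed the filter through 1 class only. The median over the 11 members that did not was 0.98. Itgb8, whose integrin releases active TGF-beta, was at 407, 199 and 165 CPM in the Treg of EV and 259, 0 and 188 CPM in those of Bmal1 WT, against 0 to 43.3 CPM in conventional cells, and rose by 3.79 (SE 0.41, adjusted p = 3.74e-06). Gzmb (granzyme B) was at 58.1, 1266 and 511 CPM in the Treg of EV and 259, 0 and 451 CPM in those of Bmal1 WT, against 8.66 to 129 CPM, and rose by 2.32 (SE 0.36, adjusted p = 0.000336). Areg (amphiregulin, a tissue repair factor) was at 494, 1067 and 691 CPM in the Treg of EV and 159, 504 and 1203 CPM in those of Bmal1 WT, against 0 to 477 CPM, and rose by 2.18 (SE 0.36, adjusted p = 0.000491). Entpd1 (CD39, which breaks down extracellular ATP) rose by 1.48 (SE 0.40, adjusted p = 0.0305), a call that ended without h7, h8 or h3. Ctla4 and Lrrc32 complete the list's 6 calls. Il10 was not called (log2 0.99, edgeR adjusted p = 0.332). It was seen in 20 of 70 Treg and 16 of 240 conventional cells, and at equal depth in 17.6% and 6.13%. Tgfb1 (0.62), Nt5e (0.70), Fgl2 (0.98) and Lgals1 (0.73) did not pass.

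Among 17 effector Treg genes tested, 8 were higher and 0 lower, with a median of 0.87. Of the list, 2 of the called members passed the filter through 1 class only, and the median over the 15 members that did not was 0.27. Beside Klrg1, Tnfrsf9, Tnfrsf1b and Traf1 these were Maf (0.88), Hopx (1.23), Cd81 (2.85) and Samsn1 (1.30). The call ended with 1 replicate left out for Maf (h7 or h3) and Hopx (h1, h8 or h9). Icos, a co-stimulatory receptor at 1109.7 CPM in Treg and 1027 CPM in conventional cells, was not called (0.17), and neither were Rgs1 (-0.58), Gata3 (-0.38) or Prdm1 (0.87). Ccr8, a receptor typical of tumour Treg, was seen in 9 of 70 Treg, at 22.9 CPM against 15.8 CPM in conventional cells, and was too low to test. No hashtag held more than 4 Treg with a Ccr8 UMI, so Ccr8-positive Treg could not be compared with the others over replicates.

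Chemokine receptors and adhesion molecules moved in both directions, with 4 of 16 tested members higher and 3 lower, and a median of -0.04. Of the list, 2 of the higher (Ccr9 and Itgae) and 1 of the lower members (Gpr183) passed the filter through 1 class only. The median over the 13 members that did not was -0.22. Ccr2, the receptor for monocyte chemoattractant proteins, was at 348, 1248 and 1123 CPM in the Treg of EV and 418, 84.0 and 564 CPM in those of Bmal1 WT, against 29.7 to 204 CPM in conventional cells, and rose by 2.66 (SE 0.33, adjusted p = 2.1e-05). Ccr9, which guides cells to the gut, rose by 5.48 (SE 0.48, adjusted p = 2.58e-07), was seen in 17 of 70 Treg, and had 36.7% of its Treg UMIs in 1 cell. In the 2 Treg of h5 it had none, against 182 CPM in the conventional cells of h5. S1pr1, which lets lymphocytes leave tissue, was at 0, 181 and 62.8 CPM in the Treg of EV and 16.7, 168 and 0 CPM in those of Bmal1 WT, against 243 to 954 CPM in conventional cells, with no overlap. Its log2 fold change was -3.62 (SE 0.39, adjusted p = 3.74e-06). That of Itgb1 was -2.63 (SE 0.32, adjusted p = 1.62e-05) and that of Gpr183 -2.05 (SE 0.49, adjusted p = 0.0144), a call that ended without h8 or h3. Itga4 (0.16), Selplg (0.16), Cxcr4 (-0.42) and Itgb7 (0.74) were not called.

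Of 12 tested genes of resting and naive T cells, 6 were lower and 0 higher, with a median of -1.47, which was the same with Tcf7 held at its bound. Of the list, 2 of the called members passed the filter through 1 class only, and the median over the 9 members that did not was -1.19. Tcf7 had no UMI in the Treg of any hashtag and 147 to 683 CPM in conventional cells. Against a floor of 3 UMIs over the Treg fitted, it was at least 51.0-fold lower, and the 4 UMIs in all 70 Treg came from 2 cells without a single hashtag. Klf2 (a factor that keeps S1pr1 on) was at 87.1, 109 and 283 CPM in the Treg of EV and 66.8, 0 and 451 CPM in those of Bmal1 WT, against 329 to 994 CPM in conventional cells (log2 -1.97, SE 0.36, adjusted p = 0.00149). Klf3, Lef1 and Satb1 had log2 fold changes of -3.08, -1.54 and -1.39, and the call ended with 1 replicate left out for Lef1 (h8 or h3) and Satb1 (h8, h3 or h9). The receptors Ccr7 (-1.19) and Il7r (-0.23) and the factor Foxo1 (0.27) did not pass. Il7r, which conventional cells are known to carry above Treg, was at 661 CPM in Treg and 826 CPM in conventional cells.

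**Figure D2:**
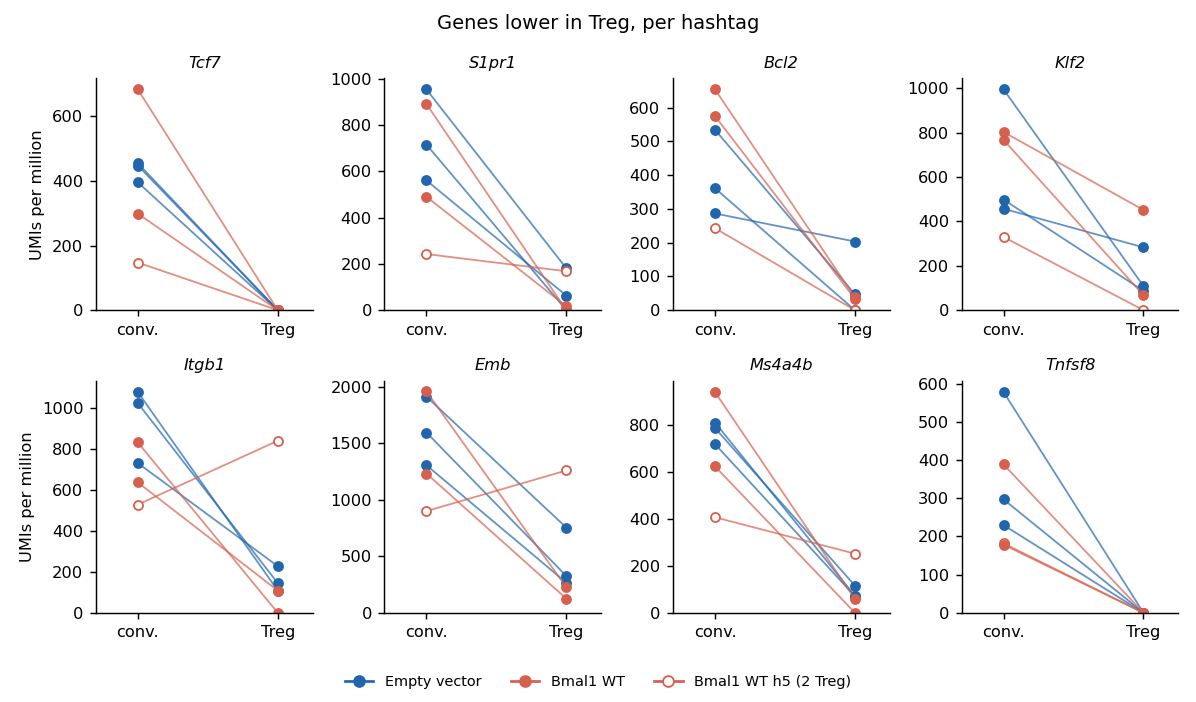
Level in CPM (y axis, linear from 0) of 8 genes called lower in Treg, drawn as lines from conventional CD4 T cells to Treg for each of 6 hashtags (blue EV, red Bmal1 WT, open circle h5). Tcf7 and Tnfsf8 are at 0 in the Treg of all 6 hashtags, and Emb and Itgb1 are above the conventional cells in the 2 Treg of h5.

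Other genes that were lower in each of the 5 hashtag pairs fitted were Ms4a4b, Tnfsf8, Emb, Tbc1d4, Bcl2, Zfp36l2, Evl and Gm2682. Tnfsf8 (CD30 ligand) had no UMI in the Treg of any hashtag and 178 to 579 CPM in conventional cells, and was at least 41.5-fold lower. Ms4a4b, a membrane protein of T cells, was at 0 to 252 CPM in Treg and 407 to 941 CPM in conventional cells (log2 -3.57, SE 0.32, adjusted p = 2.58e-07). Bcl2, which protects cells from apoptosis, was at 203, 0 and 47.1 CPM in the Treg of EV and 33.4, 0 and 37.6 CPM in those of Bmal1 WT, against 243 to 654 CPM (log2 -3.20, SE 0.46, adjusted p = 0.000116). For neither gene did the classes overlap. Emb, Tbc1d4 and Zfp36l2 had log2 fold changes of -2.38, -3.99 and -1.13. Evl had 1 UMI in the fitted Treg and 114 in conventional cells, a ratio per UMI of 40.3 (counting interval 7.09 to 1605), and Gm2682 had 1 and 94, a ratio of 33.2 (5.82 to 1326).

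In the IL-2 and STAT5 list, Il2ra and Socs2 were higher, Bcl2 was lower, and 11 of 14 tested members were not called, with a median of 0.17. The signalling chain Il2rb was at 1117 CPM in Treg and 799 CPM in conventional cells (log2 0.53), the feedback gene Cish at 435 and 256 CPM (0.53), and the kinase Jak1 at 458 and 550.1 CPM (-0.46). Il2 itself, named after its values were seen, had no UMI in Treg and was seen in 18 of 240 conventional cells. Among 12 co-inhibitory and co-stimulatory genes tested, Ctla4 was higher, and Cd28 (-0.89, adjusted p = 0.0129), Slamf6 (-2.61, adjusted p = 0.000482) and Cd40lg were lower, with a median of 0.00. Of the list, 2 of the called members (Slamf6 and Cd40lg) passed the filter through 1 class only, so their calls are no support for a direction. The median over the 10 members that did not was 0.26. The call of Cd28 ended without h7 or h3. Cd40lg, the ligand with which helper cells engage B cells, had 1 UMI in the fitted Treg and 72 in conventional cells, a ratio per UMI of 25.4 (4.42 to 1019). The inhibitory receptor Lag3 (-0.30), Cd5 (0.46) and the factor Tox (0.36) were not called.

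Of 10 genes tested in the list of helper lineages and cytokines, 4 were lower and 0 higher. All 4 (Il4, Il13, Il17a and Cd40lg) reached the filter through the conventional cells only, whose fitted sums were deeper (1027894 against 363331 UMIs), so the count is no support for a direction of the list, and the median over the 5 members that passed through both classes was -0.19. Il4, Il13 and Il17a had no UMI in any of the 70 Treg, and were at least 11.4-fold, 6.72-fold and 9.78-fold lower than in conventional cells. They were seen in 12 of 240, 16 of 240 and 10 of 240 conventional cells. Il17a was at 211, 119 and 0 CPM in the conventional cells of EV and 0, 156 and 0 CPM in those of Bmal1 WT, and its call ended without EV h7. With DESeq2, Il4, Il13, Il17a and Cd40lg were not called. The chemokine Ccl5 (-0.66), Nkg7 (-0.19), Rora (-0.00) and Gata3 (-0.38) were not called by edgeR.

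Of 13 tested genes of glycolysis and the hypoxia response, 7 were higher and 0 lower, with a median of 0.80. Of the list, 1 of the called members passed the filter through 1 class only, and the median over the 11 members that did not was 0.80. The glucose transporter Slc2a1 rose by 1.82 (SE 0.44, adjusted p = 0.0161), the mitophagy receptor Bnip3 by 1.73, and the glycolytic enzymes Tpi1 and Pgk1 by 1.34 and 1.05 (SE 0.25, adjusted p = 0.0147 for Pgk1). Hif1a (0.90), Pkm (0.80) and Gapdh (0.74) lost the call in 8, 7 and 8 of 16 alternative settings. Each of the 7 lost it when some replicate was left out, namely Slc2a1 (h7 or h3), Bnip3 (h7 or h8), Tpi1 (h7, h8, h3 or h9), Pgk1 (h7, h8 or h3), Hif1a (h1, h7 or h8), Pkm (h7, h8, h3 or h9) and Gapdh (h7, h8, h3 or h9). Ldha (0.54) and Eno1 (0.38) were not called. In the T cell receptor response list 14 of 16 tested genes were not called, with Cd83 higher (2.42), Fos lower (-1.58) and a median of 0.20. The call ended for Cd83 (h7, h3 or h9) and Fos (h1, h7, h3 or h9). Cd83 passed the filter through Treg only. Junb (0.01), Dusp5 (0.21), Cd69 (0.18) and Nr4a1 (0.99) did not pass. None of 13 MHC class I, 9 heat shock or 8 glucocorticoid response genes tested was called by edgeR, and their median log2 fold changes were 0.40, -0.10 and 0.04. The same held for 7 genes of the cell cycle list, with a median of 0.59, in cells that the rule had kept low in Mki67 and Top2a.

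Of 16 interferon response genes tested, Gbp7 and Igtp, GTPases induced by interferon gamma, were higher by 1.16 and 1.13, and Irf7 was lower, with 1 UMI in the fitted Treg against 67, a ratio per UMI of 23.7 (4.11 to 949). Irf7 reached the filter through the conventional cells only, so its call is no support for a direction. The list's median was 0.31, and the call of Igtp (h7, h8, h3 or h9) ended when 1 replicate was left out. Of 13 genes of the T cell receptor complex tested, Trbc1 (-0.96, adjusted p = 0.0216) and Cd28 were lower and 11 did not pass, with a median of -0.45. The call of Trbc1 (h7 or h3) ended in the same way. Trbc2, the near-identical copy of Trbc1, was not called (-0.67, adjusted p = 0.0632) but was also lower in 5 of 5 hashtag pairs. How reads were assigned between the copies was not tested. Of 9 clock genes tested, Hlf was lower, with 1 UMI in the fitted Treg against 72 (ratio 25.4, 4.42 to 1019), a call that ended without h8, and 8 were not called, with a median of -0.06. Hlf reached the filter through the conventional cells only, so its call is no support for a direction. Arntl, given because it is the gene altered in the study, was at 36.6 CPM in Treg and 51.4 CPM in conventional cells (log2 -0.55, edgeR adjusted p = 0.696) and was seen in 13 of 70 Treg. Bhlhe40, a repressor within the clock, was at 634 and 716 CPM (-0.06, not called).

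**Figure D3:**
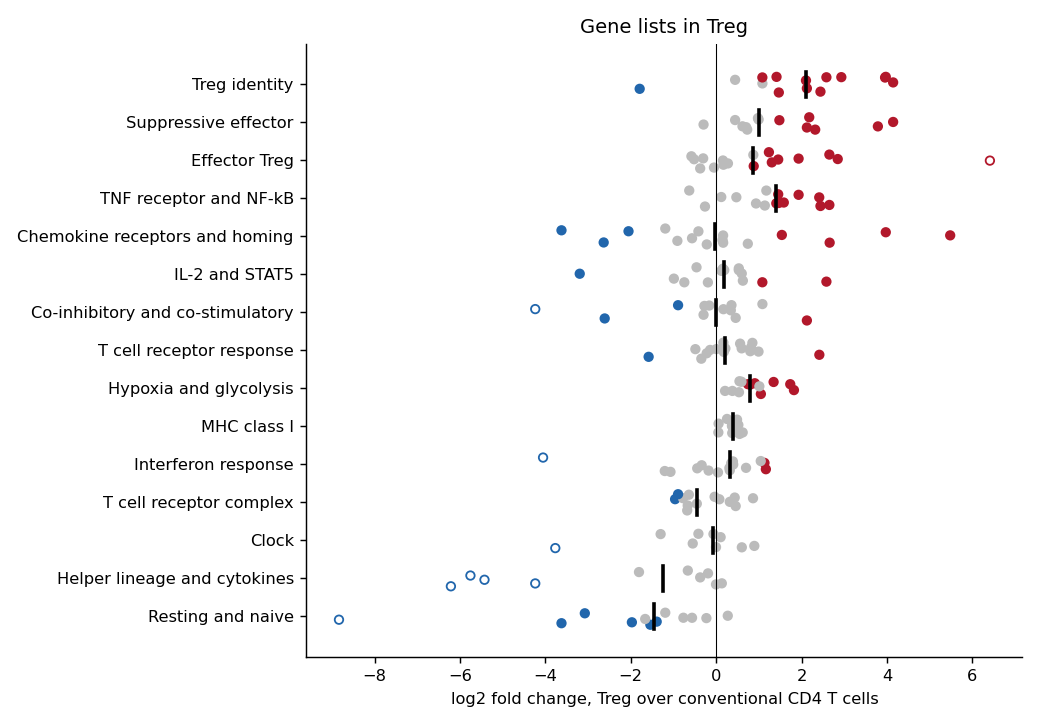
Log2 fold change of Treg over conventional CD4 T cells (x axis) for each tested gene of 15 lists (rows), with red for called higher, blue for called lower and grey for not called. Open circles are genes with 0 to 3 UMIs in 1 class, whose position is not a measured fold, and black bars are medians, from 2.11 for Treg identity to -1.47 for resting and naive genes.

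The promoters of the called genes were searched for 3 motifs in RefSeq windows of 300 bases around the start of transcription (GRCm38.p6), on both strands, for 102 of the genes called higher and 85 of those called lower. The palindromic letters TTCNNNGAA, bound by STAT factors, stood in 15 of the 102 promoters of genes called higher (14.7%), in 4 of the 85 of genes called lower (4.71%), in 6.93% of the 3622 promoters of tested genes and in 8.47% of all 27025. The forkhead letters GTAAACA stood in 0.980%, 2.35%, 2.60% and 3.55%, and the runt letters TGTGGTT in 3.92%, 7.06%, 3.73% and 5.37% of the same promoters. Matches that overlap each other were each counted. These are matches of letters and were not tested. The windows of 3 genes called higher are shown with the STAT letters in capitals, as examples of where they fall.
Tnfrsf1b (chr4:145246821-145247120, minus strand): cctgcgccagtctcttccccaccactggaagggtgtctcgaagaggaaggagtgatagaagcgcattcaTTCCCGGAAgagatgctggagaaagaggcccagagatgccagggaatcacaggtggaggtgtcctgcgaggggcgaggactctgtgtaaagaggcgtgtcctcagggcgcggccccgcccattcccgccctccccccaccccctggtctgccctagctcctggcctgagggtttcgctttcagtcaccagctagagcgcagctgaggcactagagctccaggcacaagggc
Gzmb (chr14:56262285-56262584, minus strand): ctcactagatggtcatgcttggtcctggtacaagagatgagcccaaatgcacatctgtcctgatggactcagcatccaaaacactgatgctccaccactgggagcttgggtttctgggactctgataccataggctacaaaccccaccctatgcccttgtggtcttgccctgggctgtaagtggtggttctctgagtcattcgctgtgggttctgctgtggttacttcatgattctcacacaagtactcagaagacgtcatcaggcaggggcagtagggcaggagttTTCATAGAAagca
Tnfrsf18 (chr4:156026072-156026371, plus strand): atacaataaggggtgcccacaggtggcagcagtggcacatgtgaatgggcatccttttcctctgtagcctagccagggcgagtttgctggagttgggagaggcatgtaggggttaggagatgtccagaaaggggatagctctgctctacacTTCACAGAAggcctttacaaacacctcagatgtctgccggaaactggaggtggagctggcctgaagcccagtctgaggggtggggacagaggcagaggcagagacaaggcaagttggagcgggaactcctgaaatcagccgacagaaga
Tnfrsf1b, Gzmb and Tnfrsf18 had the smallest adjusted p among the 15 genes called higher with a match, and held 1 match each.

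Markers of other cell types were checked over whole lists in the Treg sums. Levels are ranges over hashtag replicates, and counts of genes detected are over all Treg of a library. The B cell list had 4 of 9 genes detected in the Treg of EV and 3 of 9 in those of Bmal1 WT. Of this list, Cd79a, Ms4a1 and Pax5 had no UMI in any Treg, while 1 immunoglobulin gene was called higher. The summed level of the list was 290.4 to 904 CPM in the Treg of EV and 526 to 2017 CPM in those of Bmal1 WT, against 14.8 to 107 and 107 to 208 CPM in conventional cells, and the part of this in other calls was not tested. The macrophage list had 6 of 11 genes detected in the Treg of EV and 6 of 11 in those of Bmal1 WT, with C1qa, C1qc, Adgre1 and Apoe at 0, and a level of 181 to 408 and 168 to 338 CPM, against 148 to 1013 and 119 to 208 CPM in conventional cells. Over whole libraries, which add the cells outside a replicate, it stood at 534 CPM in EV and 1316 CPM in Bmal1 WT Treg. In conventional cells these levels were 791 and 220 CPM. The NK cell list, with Ncr1 and Klra4 at 0, had 8 of 10 and 2 of 10 genes detected and stood at 0 to 189 and 0 to 37.6 CPM, against 218 to 603 and 78.0 to 149 CPM. Over whole libraries the NK cell list stood at 564 CPM in EV and 11.4 CPM in Bmal1 WT Treg, against 463 and 290 CPM. Its Gzma (granzyme A) was called lower, with 2 UMIs in the fitted Treg against 134 (ratio per UMI 23.7, 6.43 to 198), and the call ended without h7. Gzma reached the filter through the conventional cells only. With hashtags called by centred log count its log2 fold change turned to 0.29. The CD8 T cell list stood at 982 to 2894 and 0 to 2364 CPM in Treg, with 6 and 4 of 7 genes detected and Gzmb its 1 called gene, against 1396 to 2277 and 267 to 4197 CPM. Apart from Trdc, with 1 UMI, the gamma delta T cell list had no UMI in Treg. Of the melanoma list, 3 of 8 genes were detected in the Treg of EV and 0 of 8 in those of Bmal1 WT, with Sox10, Mitf, Mlana and Pmel at 0, and none could be tested. None of the 4 macrophage genes tested was called.

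The dendritic cell list had 7 of 11 and 8 of 11 genes detected, with Clec9a and Siglech at 0. It stood at 199 to 4265 CPM in the Treg of EV and 168 to 526 CPM in those of Bmal1 WT, against 35.8 to 1818 and 29.7 to 104 CPM in conventional cells. Over whole libraries, with the cells outside a replicate, it stood at 2684 CPM in EV and 2197 CPM in Bmal1 WT Treg. In conventional cells these levels were 971 and 82.1 CPM. In each library 2 Treg, and in EV 3 conventional cells, held at least 20 UMIs of Cd74, H2-Aa, H2-Ab1, Ccl22 and Fscn1 together. Cd74, the invariant chain of MHC class II, was the 1 gene of that list called higher (2.81, SE 0.76, adjusted p = 0.0309), with 60.6% of its UMIs in 1 Treg, and was seen in 37 of 70 Treg and 27 of 240 conventional cells. It lost the call in 7 of 16 settings, among them those without h7, h8, h3 or h9. Without the cells rich in these transcripts, a setting added after seeing the data, 146 genes were higher and 135 lower, 235 of the 246 called genes that could still be tested kept their call, and Cd74 had a log2 fold change of 3.24. Fibroblast genes stood at 29.0 to 78.6 CPM in the Treg of EV and 33.4 to 226 CPM in those of Bmal1 WT, with Pdgfra and Pdgfrb at 0, and at 7.16 to 176 and 29.7 to 16861 CPM in conventional cells, where 1 cell of h5 held 374 Col1a1 UMIs. That replicate is not in the comparison of the classes.

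Treg varied among themselves in the genes that marked the class. Of 17 identity genes other than Foxp3, a Treg thinned to 2000 UMIs showed between 2 and 12, with a median of 7, and a conventional cell between 0 and 10, with a median of 3. Of 15 resting genes, Treg showed 0 to 5 with a median of 2, and conventional cells 0 to 13 with a median of 3. Of 18 effector Treg genes, Treg showed 2 to 11 with a median of 7, and conventional cells 0 to 10 with a median of 5. Without thinning, Itgae and Klrg1 were seen together in 20 Treg, Itgae alone in 22, Klrg1 alone in 9 and neither in 19. Gzmb and Klrg1 were seen together in 16 cells, Gzmb alone in 12 and Klrg1 alone in 13. All 9 Treg with a Ccr8 UMI held Tnfrsf9, which was seen in 46 further Treg. Ikzf2 and Nrp1 were seen together in 19 Treg and Ikzf2 alone in 49. These counts are of cells with a UMI, and at this depth a cell without one may still express the gene.

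The share of Treg was compared between the groups over replicates. CD4 T cells were counted as Treg, with or without a Cd4 UMI, plus conventional cells, which need at least 1. Among CD4 T cells, Treg made up 11.5% (7 of 61), 17.9% (10 of 56) and 23.3% (21 of 90) in EV h1, h7 and h8, and 29.8% (14 of 47), 13.3% (2 of 15) and 41.7% (5 of 12) in Bmal1 WT h3, h5 and h9. The replicates of the groups overlapped through h5. The means were 17.6% ± 5.93 (SD, n = 3) and 28.3% ± 14.2 (SD, n = 3), a difference of 10.7 percentage points (two-sided exact permutation p = 0.30, adjusted p = 0.60 over 4 shares), and 3 against 3 cannot go below 0.10. Of all kept cells, Treg made up 0.499%, 1.44% and 1.87% in EV and 1.75%, 0.404% and 1.53% in Bmal1 WT. Of all CD3 cells they made up 1.43, 4.37 and 6.03% against 7.22, 1.68 and 6.49%. The differences in these shares were -0.0393 and 1.18 percentage points (two-sided exact permutation p = 0.90 and 0.50, adjusted 0.90 and 0.667), smaller than the SD between replicates, and both signs turned when single replicates were left out.

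Depth differed between the libraries: the median depth of CD4 T cells was 5653 UMIs in Bmal1 WT and 3783 UMIs in EV. With every cell thinned to 2000 UMIs and the rule applied again, Treg made up 16.2, 23.8 and 27.9% of CD4 T cells in EV and 30.8, 36.4 and 62.5% in Bmal1 WT. The groups then did not overlap, with means of 22.7% ± 5.95 (SD, n = 3) and 43.2% ± 16.9 (SD, n = 3) and a difference of 20.6 percentage points (two-sided exact permutation p = 0.10, the smallest that this design allows). The thinned values of h5 and h9 rest on 11 and 8 CD4 T cells. In h5, thinning took the Treg from 2 to 4 and the conventional cells from 13 to 7. The rule applied after thinning is looser where UMIs bar a cell, since those of Mki67, Top2a and Cd8b1 are also thinned. Of the 4 thinned Treg of h5, 2 were Treg at full depth, 1 was a cycling Foxp3 cell and 1 carried Cd8b1. The thinned rule is stricter where a UMI is required, which beside CD3 is Cd4 for conventional cells and Foxp3 for Treg. Among cells with at least 2000 UMIs, conventional cells went from 47, 41 and 58 to 31, 32 and 49 in EV h1, h7 and h8. In Bmal1 WT h3, h5 and h9 they went from 33, 13 and 6 to 27, 7 and 3. The Treg went from 6, 10 and 21 to 6, 10 and 19 and from 14, 2 and 5 to 12, 4 and 5. These were not all the same cells. Of the thinned Treg, 4, 7 and 15 in EV and 8, 2 and 4 in Bmal1 WT were Treg at full depth. Cycling Foxp3 cells at full depth gave 1, 2 and 2 of them in EV and 3, 1 and 1 in Bmal1 WT. Cells with Cd8b1 at full depth gave 1, 1 and 0 in EV and 1, 1 and 0 in Bmal1 WT. Over cells with the same class at both depths, an alternative added after seeing the data, the share ran from 13.3 to 27.3% in EV and from 24.2 to 66.7% in Bmal1 WT. The groups overlapped, with h3 below h8, and h5 was at 28.6%. The means were 20.2% ± 6.97 and 39.8% ± 23.3 (SD, n = 3), which differed by 19.6 percentage points (two-sided exact permutation p = 0.20).

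Many Foxp3 cells carried transcripts of the cell cycle. With the cycling cells put back, 22.2% to 46.2% of Foxp3 cells in EV and 33.3% to 71.4% in Bmal1 WT held at least 2 Mki67 or Top2a UMIs, against 5.26% to 18.8% and 15.4% to 30.0% of conventional CD4 cells. The share was higher in Foxp3 cells of 6 of 6 hashtags, by 24.7 percentage points on average (41.0% ± 17.5 against 16.3% ± 8.54, SD, n = 6, two-sided exact sign-flip permutation p = 0.03125, the smallest that 6 pairs allow). The call ended at equal depth: thinned to 2000 UMIs, the shares were 17.98% ± 13.3 and 8.98% ± 9.30 (SD, n = 6, difference 9.005 points, two-sided exact permutation p = 0.21875). The median depth of Foxp3 cells including cycling ones was 5804.5 UMIs in EV and 7477 in Bmal1 WT, against 4113.5 and 5553 for conventional cells taken in the same way. Between the groups, the cycling share of Foxp3 cells was 32.3% ± 12.4 (SD, n = 3) in EV and 49.7% ± 19.6 (SD, n = 3) in Bmal1 WT, with overlap (two-sided exact permutation p = 0.30, adjusted p = 0.60). Thinned, it was 9.46% ± 4.65 and 26.5% ± 14.3 (SD, n = 3 each) without overlap (exact permutation p = 0.10). These thinned shares rest on 1 of 7, 1 of 11 and 1 of 20 Foxp3 cells in EV h1, h7 and h8. In Bmal1 WT h3, h5 and h9 they rest on 3 of 15, 3 of 7 and 1 of 6. The nearest values were 1 of 7 (h1) and 1 of 6 (h9), so the lack of overlap hangs on 1 cell.

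**Figure D4:**
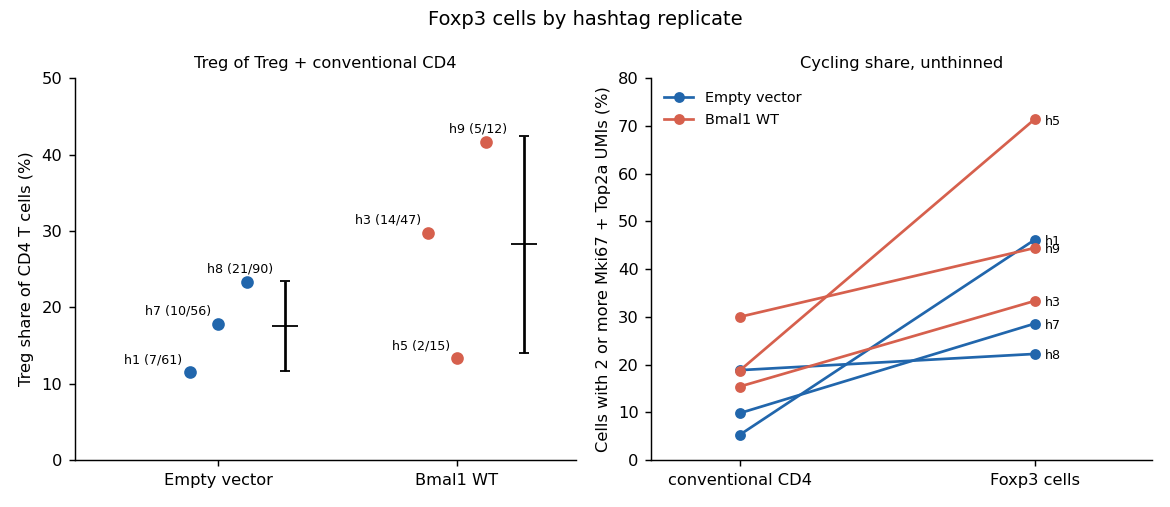
Left, Treg as a percentage of CD4 T cells (y axis, from 0) by group, with a point per hashtag, its cell counts in brackets, and the mean with its SD in black. Right, percentage of cells with at least 2 Mki67 and Top2a UMIs in conventional CD4 cells and in Foxp3 cells, with a line per hashtag. All 6 lines go up before thinning, from 5.26% to 46.2% in h1 and from 18.8% to 22.2% in h8.

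Within Treg, no gene was called between Bmal1 WT and EV. Of 1424 genes that reached 50 UMIs in total in the 6 sums, edgeR called 0 (0% of genes tested) and DESeq2 0, with 40 and 15 genes at an unadjusted p under 0.05. On simulated data of this size, 84.0% of genes changed 4-fold were recovered but 3.00% of those changed 2-fold. Most differences of 2-fold were thus not detectable at this depth. That simulation drew the spread of each gene from a trend over genes, with 200 genes changed. It does not show how often a 4-fold difference would be found in genes whose UMIs lie in few cells. Penk, at a log2 fold change of -3.25, was not called, and the 0 calls do not exclude differences of 4-fold. The replicates of the groups did not overlap for 65 genes higher in Bmal1 WT (4.56% of genes tested) and 61 lower (4.28%). The identity genes had a median log2 fold change of -0.35 over 13 tested, with Ctla4 at -0.35, Ikzf2 at -0.18 and Il2ra at -0.35, against -0.02 over all genes. The 13 TNF receptor and NF-kB genes, 14 effector Treg genes and 13 MHC class I genes tested had medians of -0.26, -0.39 and 0.11. The first 2 of these lists share Tnfrsf9, Tnfrsf1b and Traf1, and the sums include the 2 Treg of h5. None of these genes was called by edgeR.

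The genes with the smallest unadjusted p among those without overlap are given as values, since none was called. Pdcd1 (PD-1) was at 116, 72.3 and 141 CPM in the Treg of EV h1, h7 and h8 and 351, 168 and 301 CPM in those of Bmal1 WT h3, h5 and h9 (log2 fold change 1.39, SE 0.47, edgeR adjusted p = 0.999). Its h5 value rests on 2 cells. Atp5h, a subunit of ATP synthase, was at 174, 163 and 118 CPM in the Treg of EV h1, h7 and h8 and 384, 420.2 and 489 CPM in those of Bmal1 WT h3, h5 and h9 (log2 fold change 1.53, SE 0.42, edgeR adjusted p = 0.999). Tmsb10, Serpina3g and S100a10 had log2 fold changes of 0.78, 1.63 and 1.07. In the other direction, Zfp36 (tristetraprolin, which destabilises cytokine mRNAs) was at 1394, 253 and 738 CPM in the Treg of EV h1, h7 and h8 and 159, 84.0 and 188 CPM in those of Bmal1 WT h3, h5 and h9 (log2 fold change -2.30, SE 0.61, edgeR adjusted p = 0.999). Dgat1, an enzyme of triglyceride synthesis, was at 494, 850.0 and 597 CPM in the Treg of EV h1, h7 and h8 and 317, 168 and 263 CPM in those of Bmal1 WT h3, h5 and h9. Irf2, an interferon regulatory factor, was at 348, 199 and 259 CPM in the Treg of EV h1, h7 and h8 and 109, 84.0 and 75.2 CPM in those of Bmal1 WT h3, h5 and h9. Penk had a log2 fold change of -3.25, and Basp1 was at 0 in all 3 Bmal1 WT replicates, with 68.3% of its UMIs in 1 Treg. A further 16 UMIs of Basp1 lay in Bmal1 WT Treg without a single hashtag.

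**Figure D5:**
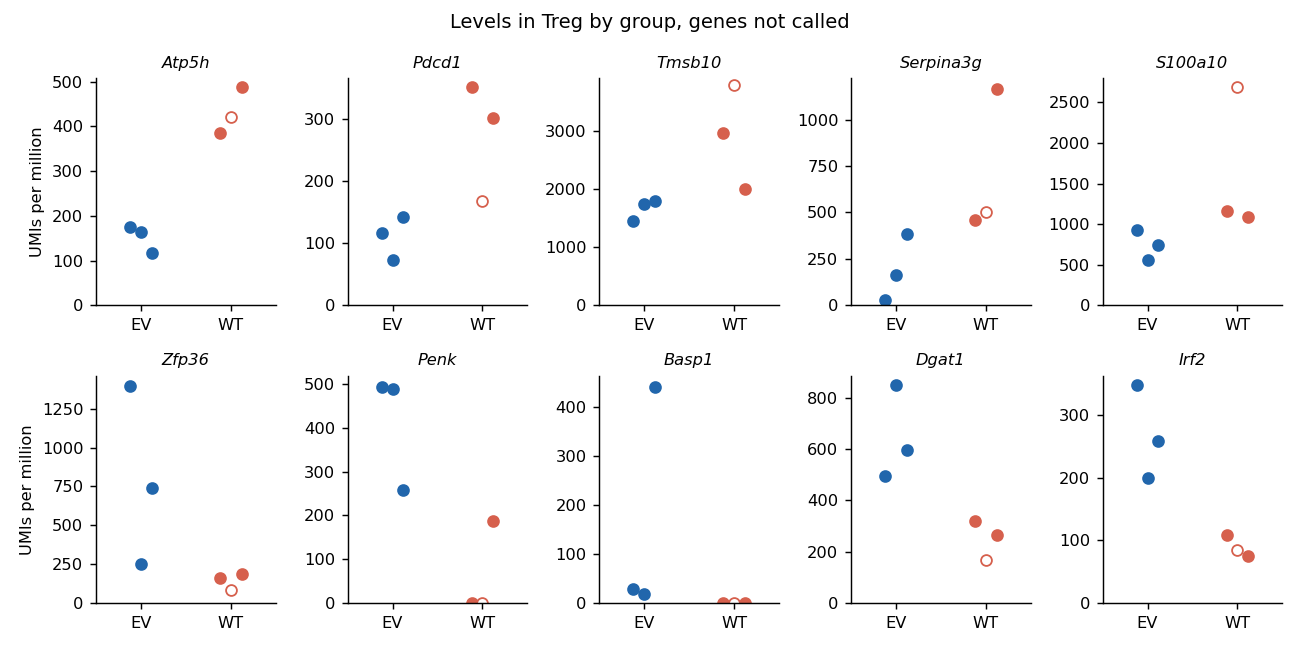
Level in CPM (y axis, linear from 0) in Treg for the 10 genes with the smallest unadjusted p among those whose replicates do not overlap, 5 higher and 5 lower in Bmal1 WT, with a point per hashtag (EV blue, Bmal1 WT red, open circle h5). The genes were picked for this separation, and none was called.

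Whether the difference between Treg and conventional cells itself differed between the groups was tested as an interaction over 12 sums. Of 4867 genes tested, edgeR called 4 (0.0822% of genes tested), 1 with a larger Treg excess in Bmal1 WT (0.0205%) and 3 with a smaller one (0.0616%), while DESeq2 called 0, with 145 and 49 genes at an unadjusted p under 0.05. Il10 was at 87.1, 850.0 and 157 CPM in the Treg of EV and 200.5, 0 and 414 CPM in those of Bmal1 WT. In conventional cells it was at 329, 351 and 155 CPM in EV and 5.63, 8.66 and 0 CPM in Bmal1 WT. The Treg values of the groups overlapped, and those of conventional cells did not. The interaction was 4.41 (log2, SE 0.97, adjusted p = 0.0172) and lost its call in 9 of 16 alternatives. The other 3 genes were Ccl1, Ifitm3 and Col1a1, for which 1 cell held 94.7% (Ccl1) and 96.4% (Ifitm3) of the UMIs in Treg and 98.7% (Col1a1) of those in conventional cells. Without Bmal1 WT h5 no gene was called by edgeR, and 144 had an unadjusted p under 0.05.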

How the data were processed

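Cells of the Empty vector and Bmal1 WT groups were profiled with the 10x Genomics 3' chemistry (version 3.1) and hashtag antibodies. The authors deposited raw UMI counts per gene and barcode, made with Cell Ranger 6.1.2 per the file headers, and the submitters' processing notes name mm10. The counts were not normalized. For Bmal1 bHLH, all 3 files held the same values as those for Bmal1 WT, and they were not used. The 3 hashtags per group were taken as replicates. The 2 libraries held 34232927 UMIs (EV) and 39561569 UMIs (Bmal1 WT) over all barcodes.

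Barcodes with at least 200 genes and at most 20% of UMIs from 13 mitochondrial genes were kept. A hashtag was called by a 2-component Gaussian mixture on its log count (scikit-learn 1.9.0), and cells with 0 or several hashtags entered no replicate. No other doublet filter was applied. UMIs were summed per hashtag and class. Genes with 50 or more UMIs were tested with edgeR 4.0.16 (quasi-likelihood, scaled by total UMIs, R 4.3.3) with Benjamini-Hochberg adjustment at 0.05. The hashtag was a block in the comparison of classes, because both classes of a hashtag come from 1 replicate. The SE is the log2 fold change divided by the square root of F. The steps were tested on simulated data with 200 changed genes, with the spread of each gene taken from a trend over genes. In the comparison of classes 82.0% of 4-fold and 27.0% of 2-fold changes among 4545 genes were recovered. In the interaction this was 6.50% and 0% of 4867.

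Shares were compared by exact permutation. Alternatives were hashtags by centred log count, TMM scaling, DESeq2 1.42.0, no replicate block, filters of 1 and 100 UMIs, other cell filters (none, or at least 500 genes and at most 10% mitochondrial), at least 2 Foxp3 UMIs, thinning to 2000 UMIs, leaving out cells with 3 or more UMIs of markers of other cell types, leaving out cells with 20 or more antigen-presenting UMIs and, for the share of CD4 T cells, thinned cells that keep their class (both added after seeing the data), and leaving out each replicate. Genes named were the markers given, the 12 called genes per direction with the smallest adjusted p among those moving alike in every hashtag pair, called list members and the 4 other members with the highest level in Treg, and in the comparison of groups the 5 per direction without overlap. Immunoglobulin and sex-linked genes are given as counts only, and results for some list members are not reported here. The members, the 26 gene lists and the tests were chosen with earlier results of these data known. Gene positions are from GENCODE M21 (GRCm38), 1-based, and promoters on chromosome 18 were not analysed here.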

Additional observations from a re-analysis of the deposited data

Results flagged for a closer look

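The difference between Treg and conventional CD4 T cells differed between EV and Bmal1 WT in 4 genes by an interaction test over 12 sums. The interaction of Il10 was 4.41 (log2, SE 0.97, edgeR adjusted p = 0.0172). It was seen in 20 Treg and 16 conventional cells, of which 1 conventional cell held 31.5% of the UMIs in that class.

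Ccl1 had an interaction of -9.47 (SE 1.79, edgeR adjusted p = 0.00275). Its 19 UMIs in Treg lay in 2 cells of EV h8, 18 of them in 1 cell, against 208 and 191 CPM in the conventional cells of Bmal1 WT h3 and h5. CD8 T cells of Bmal1 WT h5 held it at 1439.8 CPM.

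Ifitm3 had an interaction of -5.50 (SE 1.20, edgeR adjusted p = 0.0172), with 96.4% of its 84 Treg UMIs in 1 cell. It was -0.52, and not called, without the cells rich in antigen-presenting transcripts. Col1a1 had an interaction of -7.26 (SE 1.603, edgeR adjusted p = 0.0172), with 98.7% of its 379 UMIs in conventional cells in 1 cell of Bmal1 WT h5.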

How the results depend on the processing

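The comparison of Treg with conventional CD4 T cells called 250 genes. It called 166 in cells thinned to 2000 UMIs, where 1830 genes were tested and 122 of the 167 called genes still tested kept their call. Leaving out 1 replicate gave 136 to 246, with 136 without Empty vector h7, 145 without h8 and 148 without Bmal1 WT h3. With no replicate block 240 genes were called, and 214 of the 250 kept their call. DESeq2 called 175 and gave no adjusted p for 1322 of 4545 genes. Of 71 named genes called, 40 kept the call in every alternative run that still tested them. Some of these were not tested in all alternatives. Gzma turned to 0.29 with hashtags by centred log count. Penk turned to -0.72 with hashtags by centred log count, -0.37 with at least 2 Foxp3 UMIs and -0.18 with no replicate block, and ran from -0.60 to 2.10 when 1 replicate was left out, below 0 without Empty vector h1 or h7.

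Within Treg, the 0 calls between groups became 12 with no filter on low counts and 1 after thinning. No paired analysis was possible because the hashtags of the groups are different replicates. The 4 interaction calls became 8 with hashtags by centred log count, 2 with TMM, 0 with DESeq2, with at least 100 UMIs and after thinning, 7 with no filter, 6 with the stricter cell filter, 6 with at least 2 Foxp3 UMIs and 1 without cells of mixed markers, and 0 to 6 when 1 replicate was left out, with 0 without Bmal1 WT h5, 1 without h3, 2 without Empty vector h8 and 6 without h1. The interaction of Ccr7 turned to 0.0395 with hashtags by centred log count, and that of Cx3cr1 to -0.42 when thinned. With 1 replicate left out, Cx3cr1 ran from -0.0771 to 3.52 (below 0 without Bmal1 WT h3), Penk from -10.77 to 3.55 (above 0 without Bmal1 WT h3) and Ifitm3 from -9.86 to 0.85 (above 0 without Empty vector h8).

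The Treg share of kept cells, -0.0393 points, turned to 0.0125 with the stricter cell filter, 0.145 with at least 2 Foxp3 UMIs, 0.122 thinned, 0.216 without cells of mixed markers and 0.0361 without cells of antigen-presenting UMIs, and ran from -0.424 to 0.373 when 1 replicate was left out. The share of CD3 cells ran from -0.0704 to 2.91. The share of CD4 T cells kept its direction in all alternatives run, from 4.00499 (without Bmal1 WT h9) to 20.6 points. The cycling excess of Foxp3 cells was 9.005 points after thinning, and 19.1 to 28.9 with 1 replicate left out, where 5 pairs cannot pass the test. The cause of these changes was not tested. The low number of Treg, 2 in Bmal1 WT h5, limits every value by group.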
